A study of Arabidopsis halleri and Arabidopsis lyrata subsp. petraea with 24 samples.

Results

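Roots and leaves of Arabidopsis halleri were compared on 12 of 24 Affymetrix ATH1 arrays, and the organ of each array is an inferred label. The printed titles carry a serial number and a group. The mean of 4 leaf markers lay above or below that of 3 root markers as the printed organ requires on 9 of 24 arrays. When the serials were sorted as text and the array at each position took the group printed for the serial of that number, 23 of 24 arrays matched. All results below use this inferred order, under which serials 1, 10, 11, 12, 13 and 14 are A. halleri roots and serials 15, 16, 17, 18, 19 and 2 are A. halleri leaves. The order was selected on organ markers from these same arrays, so every difference between roots and leaves is given as a description with no test. The markers bear on the organ alone, and the species and zinc level of each array rest on the inferred order.

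A. halleri, a wild relative of A. thaliana, tolerates zinc and concentrates it in its leaves. The series asks for the molecular basis of this tolerance and accumulation and also holds 12 arrays of A. lyrata subsp. petraea (A. petraea below), which is not a zinc accumulator. Plants of both species grew in a growth room on a full mineral medium, either as controls or with 25 µM zinc, and whole root systems and rosette leaves were taken. How much zinc the control medium held is not stated in the labels. Each of the 8 groups of species, zinc level and organ held 3 arrays. The labels give a stage of 10 to 16 rosette leaves, except for the array of serial 1, whose stage is printed as 1.1. The labels do not tell if replicate arrays stem from different plants, so the p-values below rest on a spread that may be technical. The probe sets were designed on A. thaliana, and a sequence difference from that species can lower a signal.

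Roots and leaves divide the work of a plant. Leaf chloroplasts capture light with antenna proteins and the photosystems, pass electrons to an ATP synthase and fix carbon in the Calvin cycle, and the genes for this machinery lie partly in the nucleus and partly in the chloroplast genome. Roots take up water, nitrate and metals, extend hairs, and build walls rich in extensins, which are structural glycoproteins, and in class III peroxidases, which cross-link wall polymers. In A. halleri, metal transporters of the root and shoot are known for their part in moving zinc to the leaves. In whole organs, fewer cells of a type and less transcript per cell cannot be told apart.

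Levels below are log2(signal + 16) of the deposited intensity, and differences are roots minus leaves, averaged over both zinc levels. Signals far under 16 lie near the floor of this scale, where a narrow range does not show a steady level. Levels of different genes are not compared, since each probe set binds with its own strength. Median signals were 59.1 to 71.4 on root arrays and 43.6 to 57.3 on leaf arrays of A. halleri, and between 20.6% and 27.3% of signals on an array were under 16. The median difference over the 17059 probe sets tested was 0.28, against 0.12 after quantile normalization, so small positive differences are close to this shift. Root arrays correlated with root arrays at r = 0.71 to 0.93 across these probe sets, leaf arrays with leaf arrays at 0.70 to 0.95, and root with leaf arrays at 0.45 to 0.57. Each of the 12 A. halleri arrays correlated best with the array of the same organ and replicate number at the other zinc level, at r = 0.88 to 0.95, so the 6 arrays of an organ lie in 3 pairs.

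The 7 markers that chose the order are shown first. Rubisco activase (RCA), which keeps the carbon-fixing enzyme active, ran from 9.95 through a median of 11.22 to 11.73 on the 6 leaf arrays and from 5.45 through 6.29 to 7.36 on the 6 root arrays. PYK10, a beta-glucosidase stored in endoplasmic reticulum bodies of roots, ran from 7.75 through 9.78 to 10.38 in roots and from 5.83 through 6.03 to 6.28 in leaves. The organs did not overlap for either gene. The root hair expansins EXPA7 and EXPA18, which loosen the wall of the growing hair, were less clear: EXPA7 spanned 5.88 to 9.26 in roots and 5.71 to 6.50 in leaves, and EXPA18 spanned 5.10 to 8.82 and 4.45 to 5.99. The overlap came from high zinc roots 3, with EXPA7 at 5.88 and EXPA18 at 5.10.

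**Figure D1:**
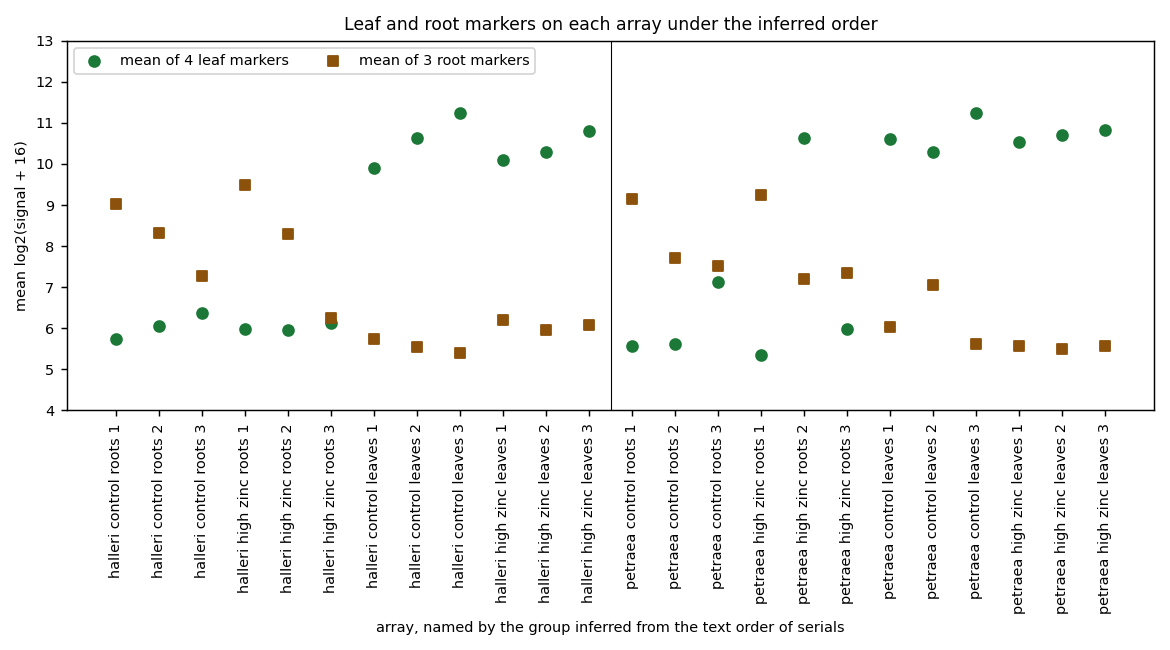
Mean log2(signal + 16) of the 4 leaf markers (RCA, PSAE-1, PRK, SBPASE) and of the 3 root markers (PYK10, EXPA7, EXPA18) on each array, named by its inferred group, with A. halleri left of the line and A. petraea right of it. Leaf markers lie above root markers on all 6 A. halleri leaf arrays and below them on all 6 root arrays, by only 0.10 in high zinc roots 3, while petraea high zinc roots 2 carries leaf markers.

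The leaf marker mean exceeded the root marker mean by 3.88 to 5.83 on the leaf arrays. On the root arrays the difference was -3.30, -2.26 and -0.90 for control roots 1, 2 and 3 and -3.51, -2.33 and -0.10 for high zinc roots 1, 2 and 3. High zinc roots 3 was thus the A. halleri array nearest to the boundary, and on the wrong side lay petraea high zinc roots 2, at 3.43. That array had PYK10 at 9.14 beside RCA at 12.22, and petraea control leaves 2 likewise had PYK10 at 9.13 beside RCA at 12.45. The tests and list medians that rest on A. petraea are therefore also given without these arrays. Of 15 genes of flower, pollen and seed, 5 were tested, with a median difference of 0.30; their mean level was 6.12 to 6.88 on root arrays and 5.82 to 6.26 on leaf arrays.

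All 6 root arrays lay above all 6 leaf arrays, with means at least 1 apart, at 1195 probe sets (7.01%), and all 6 leaf arrays lay above all 6 root arrays in this way at 1148 (6.73%). Since the contrast chose the order, nothing is read from these shares. They held 638 and 542 named genes, respectively. Differences of 4 or more were more numerous on the leaf side, with 156 probe sets higher in leaves and 43 higher in roots. With a pseudocount of 64 in place of 16 the counts were 556 and 927. In the text below, a gene is called higher in an organ only where it meets this rule. Counts in gene lists are to be set beside the 7.01% and 6.73%, and nothing is read from small counts in short lists.

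**Figure D2:**
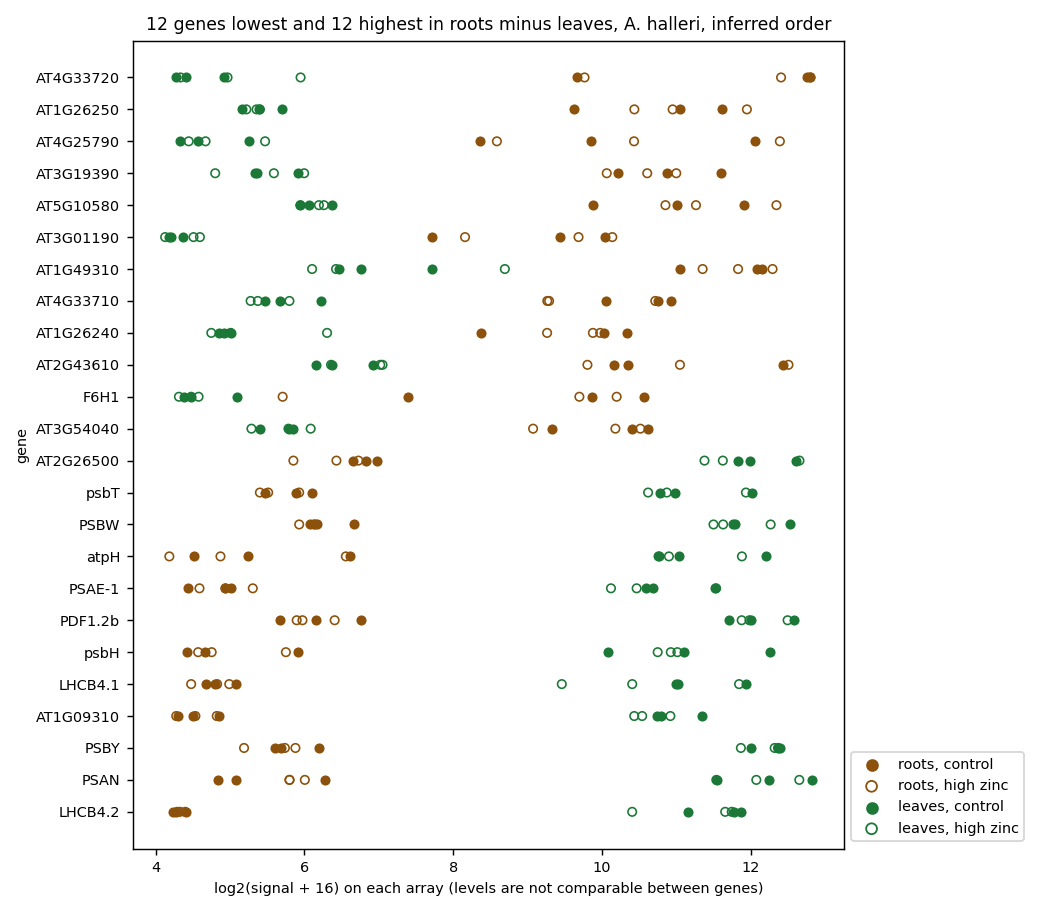
Log2(signal + 16) on each of the 12 A. halleri arrays for the 12 named genes with the largest positive and the 12 with the largest negative difference, roots in brown, leaves in green, control filled and high zinc open. The organs are separated for each gene by the rule that chose it, and root values spread most for F6H1, AT4G25790 and AT4G33720.

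Photosynthesis genes made up most of the leaf end. Of the 12 named genes with the largest leaf excess, 10 encode parts of the light reactions. LHCB4.2, a minor antenna protein of photosystem II, was at 10.41 to 11.87 in leaves, with a median of 11.70, and at 4.24 to 4.41 in roots, with a median of 4.31, a difference of -7.11. Its root values had an SD of 0.07 (n = 6), but they lie near the floor of the scale, where this does not show a steady level. The related LHCB4.1 differed by -6.13, with 9.46 to 11.93 in leaves and 4.48 to 5.08 in roots. LHCB4.3 also stood higher in leaves but by far less, at -1.56. All 5 light harvesting genes tested were higher in leaves, with a median of -4.02 beside 0.28 over all probe sets. They include LIL3:1 at -4.02, a light-harvesting-like protein needed for chlorophyll supply.

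Subunits of the photosystems stood as far apart as the antenna. PSAN, a lumen-side subunit of photosystem I, was at 11.54 to 12.82 in leaves and 4.84 to 6.28 in roots, a difference of -6.51. PSBY, a small subunit of photosystem II, was at 11.87 to 12.40 and 5.19 to 6.20, a difference of -6.50. PSAE-1 of photosystem I and PSBW of photosystem II differed by -5.95 and -5.72. PSAE-1, counted in the list below, is a marker that chose the order. Factors that assemble or repair photosystem II were more mixed. PAM68 at -4.26 and PSB27 at -4.05 were higher in leaves, whereas LPA1 at -1.47 and LPA19 at -0.31 had overlapping organs. In all, 8 of the 10 genes in the photosystem list were higher in leaves and 0 in roots, with a median of -4.16.

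Electron transport and carbon fixation genes were also mostly higher in leaves. AT2G26500, the small PetM subunit of the cytochrome b6f complex, was at 11.38 to 12.65 in leaves and 5.85 to 6.97 in roots, a difference of -5.43. ATPC1, the gamma subunit of the chloroplast ATP synthase, differed by -5.40, while its paralog ATPC2 had equal means of 5.61 in both organs. TAAC, an ATP carrier of the thylakoid membrane, was at 7.69 ± 0.28 in roots and 7.28 ± 0.17 in leaves (SD, n = 6 each). The electron transport list had 8 of 10 members higher in leaves and 0 in roots, with a median of -2.49. In the Calvin cycle list this held for 4 of 5. RCA, SBPASE and PRK among them are markers that chose the order, while TRXF2, at -1.77, is not. RCA differed by -4.54, SBPASE, a phosphatase of the cycle, by -4.30. Phosphoribulokinase (PRK) was at 8.16 to 10.90 in leaves and 5.97 to 6.94 in roots. NTRC, a thioredoxin reductase that controls chloroplast enzymes, overlapped between the organs with a difference of -1.41.

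All 43 photosynthesis genes of the chloroplast genome that were tested were higher in leaves, with a median of -3.78. Their mean level was 10.38 to 11.55 on leaf arrays and 6.83 to 7.16 on root arrays. The difference ran from -6.01 for psbH, of photosystem II, to -1.52 for psaI, of photosystem I. psbH was at 10.08 to 12.26 in leaves and 4.42 to 5.92 in roots. The ATP synthase subunit gene atpH and the photosystem II gene psbT completed the leaf end at -5.93 and -5.48. The D1 protein gene psbA differed by -5.36 and rbcL, the large subunit of Rubisco, by -3.07.

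Pathways that serve photosynthesis were split. Hydroxypyruvate reductase (HPR), of photorespiration, was at 10.25 to 11.96 in leaves and 5.96 to 6.70 in roots, a difference of -4.92, and the glycine decarboxylase subunit GDCST differed by -1.71. Glycerate kinase (GLYK) had a difference of 0.92 with overlapping organs. In chlorophyll and tetrapyrrole synthesis 5 of 10 genes were higher in leaves and 1 in roots, with a median of -1.41. Protochlorophyllide oxidoreductase PORB, which makes the light-dependent step, stood at -4.10 and HEME2, a uroporphyrinogen decarboxylase, at -3.08. The exception was hemb2, at 6.92 to 7.64 in roots and 5.71 to 6.15 in leaves, a difference of 1.35. Of the starch genes 2 of 4 were higher in leaves, among them the branching enzyme SBE2.2 at -2.90.

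Leaf epidermis genes were less distinct. Of 7 tested, 1 was higher in leaves: STOMAGEN, a peptide that promotes stomata, with a difference of -3.17. It was at 4.23 to 4.49 in roots, near the floor of the scale, and ran from 5.66 to 9.13 in leaves. Its leaf values kept to the replicate pairs, with 8.67 and 9.13 for leaves 1, 6.37 and 5.66 for leaves 2 and 7.70 and 7.63 for leaves 3 at control and high zinc. YAB5, which marks the lower leaf side, overlapped at -1.64. The last leaf-end genes were PDF1.2b, a plant defensin, at 11.71 to 12.58 in leaves and 5.68 to 6.77 in roots, a difference of -5.96, and AT1G09310 at -6.25. GTR1, a glucosinolate transporter, and chalcone isomerase (CHI), of flavonoid synthesis, were the members higher in leaves in their lists of 6 and 5 genes, at -1.24 and -1.93. The clock list of 3 had CCL higher in leaves, at -5.34. Its other members, GI at 1.04 and COR27 at 0.85, leaned to roots without meeting the rule.

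**Figure D3:**
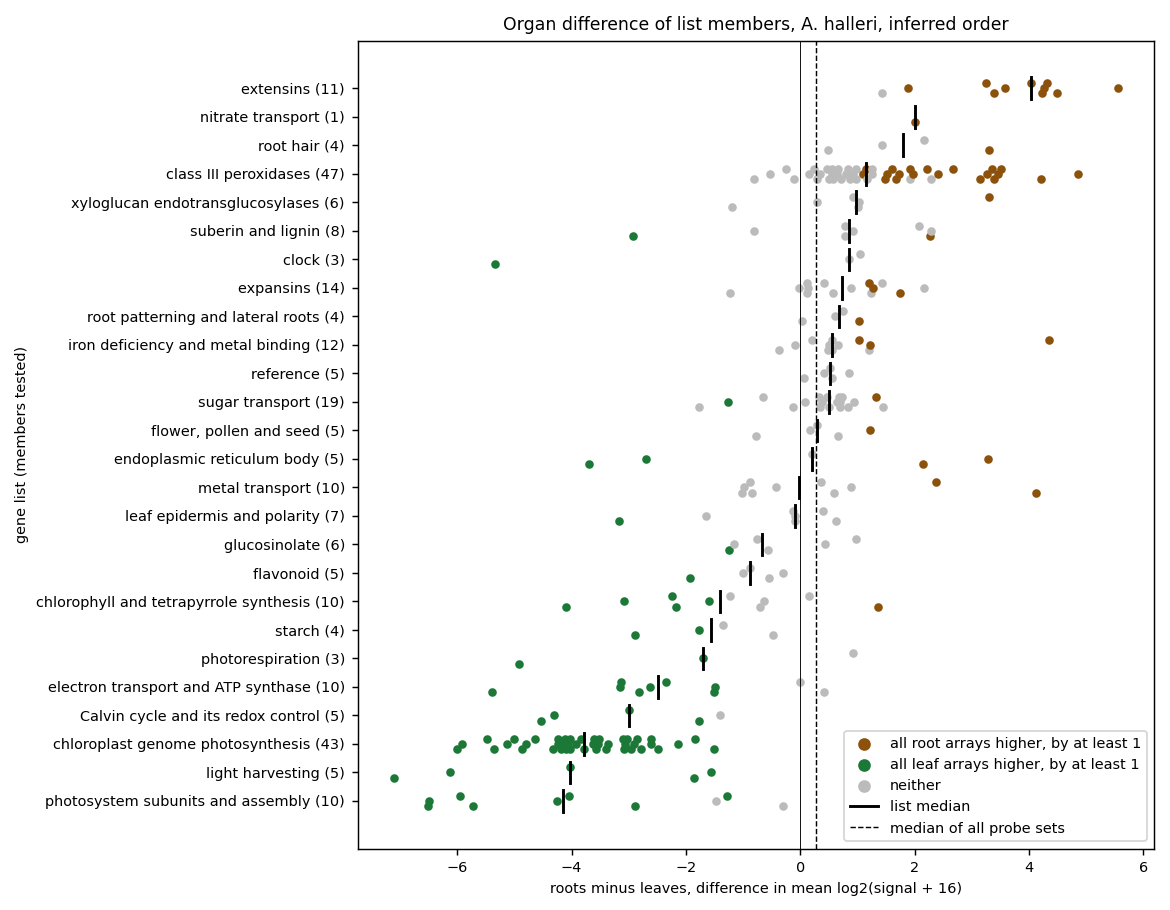
Roots minus leaves for each tested member of 26 gene lists, with list medians as black bars, the median of all probe sets (0.28) dashed, and the number of members tested in brackets. Photosynthesis lists lie left of zero with medians down to -4.16, extensins lie right with a median of 4.04, and most other lists straddle the dashed line. The markers that chose the order are among the members shown.

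At the root end, the largest difference among named genes was 6.89 for AT4G33720, a secreted protein of the CAP family that includes PR-1. Its levels were 12.80, 12.76 and 9.66 in control roots 1, 2 and 3 and 12.80, 12.41 and 9.77 in high zinc roots 1, 2 and 3, against 4.27 to 5.95 in leaves. The CAP genes AT4G25790 and AT4G33710 followed this direction with 5.49 and 4.53. AT2G43610, a chitinase-like gene, was at 9.80 to 12.51 in roots and 6.16 to 7.05 in leaves, a difference of 4.41. AT3G19390, a papain-like cysteine protease, was at 10.06 to 11.59 in roots and 4.80 to 6.00 in leaves, a difference of 5.22. The root end also held AT5G10580 at 5.08, AT1G49310 at 4.77 and AT3G54040 at 4.32.

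Of 11 extensins, 10 were higher in roots, with a median of 4.04. AT1G26250 was at 9.62 to 11.95 in roots and 5.16 to 5.71 in leaves, a difference of 5.56, and AT1G26240 differed by 4.50. HRGP1, a hydroxyproline-rich wall glycoprotein, differed by 4.32. AT4G08370 at 1.43 was the member with overlapping organs. The mean level of the list was 10.76, 10.11 and 8.08 in control roots 1, 2 and 3 and 11.02, 9.97 and 8.38 in high zinc roots 1, 2 and 3, so root arrays numbered 3 were lowest, as they were for the root hair markers. Leaf arrays lay between 5.83 and 6.50. Of these extensins, 4 were read by probe sets that can bind related transcripts, so these are not separate measurements of single genes.

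Class III peroxidases were higher in roots for 20 of 47 tested genes and higher in leaves for 0, with a median of 1.16. AT3G01190 was at 7.72 to 10.14 in roots and 4.13 to 4.60 in leaves, a difference of 4.87. AT4G26010 and AT5G19890 differed by 4.22 and 3.45. The family mean was 7.14 to 7.52 on root arrays and 5.70 to 6.02 on leaf arrays. As for the extensins, root arrays numbered 3 were lowest, with 7.19 at control and 7.14 at high zinc. The size of this drop is not compared with that of the extensins. Only 20 of the 47 peroxidases averaged met the rule, against 10 of 11 extensins.

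Root hair and other wall genes were less far apart as groups. XTH26, a xyloglucan-modifying enzyme, was the 1 of 4 root hair genes higher in roots, with a difference of 3.31. Its levels were 9.06, 8.06 and 4.69 in control roots 1, 2 and 3 and 9.48, 7.92 and 6.03 in high zinc roots, against 4.14 to 4.34 in leaves. It was also the only one of 6 xyloglucan endotransglucosylases tested that met the rule. Of 14 expansins 3 were higher in roots, among them EXLB1 at 1.75. In the suberin and lignin list of 8, FACT, which makes alkyl caffeates of root wax, was higher in roots at 2.27 and CCOAMT, a lignin methyltransferase, higher in leaves at -2.93. GSO1, a receptor kinase of the endodermal barrier, was higher in roots at 1.02, 1 of 4 root patterning genes.

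The endoplasmic reticulum body list held members on both sides. PYK10 at 3.28 and NAI2, which forms the bodies, at 2.15 were higher in roots. PYK10 is a marker that chose the order. The jacalin-related lectins JAL22 and JAL23, known in A. thaliana as partners of PYK10, were higher in leaves. JAL22 was at 7.77 to 8.65 in leaves and 5.39 to 5.93 in roots, a difference of -2.69, and JAL23 was at 7.75 to 9.61 and 4.40 to 5.86, a difference of -3.70.

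Among metal transport genes 2 of 10 were higher in roots and 0 in leaves, with a median of -0.03. MTP10, of the cation diffusion facilitator family, was at 6.82, 6.70 and 9.62 in control roots 1, 2 and 3 and at 7.30, 9.80 and 10.34 in high zinc roots, against 4.25 to 4.52 in leaves. The difference was 4.12, with a wide spread among roots (SD 1.66, n = 6). ZIP9, of the ZIP family of zinc importers, was at 9.72, 8.15 and 7.21 in control roots and 10.07, 8.53 and 6.78 in high zinc roots, against 5.61 to 6.50 in leaves, a difference of 2.37. The root arrays numbered 3 were thus highest for MTP10 within each zinc level and lowest for ZIP9. ZIP6 at -0.43, the vacuolar manganese transporter MTP8 at -0.84 and bZIP19, a regulator of the zinc deficiency response, at 0.89 overlapped between organs.

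Of 12 iron deficiency and metal binding genes, 3 were higher in roots and 0 in leaves, with a median of 0.56. F6H1, an enzyme of coumarin synthesis on the way to scopoletin, differed by 4.35. It was at 9.87, 10.57 and 7.40 in control roots and 10.20, 9.70 and 5.71 in high zinc roots, against 4.31 to 5.10 in leaves. The transcription factors bHLH115 and ILR3, which act in iron deficiency, differed by 1.23 and 1.03. The high-affinity nitrate transporter NRT2.5 differed by 2.01, with 9.30 and 10.30 on the root arrays numbered 2 and 6.59 on both numbered 1. Of 19 sugar transporters, SWEET14 was higher in roots at 1.33 and SWEET11, which exports sucrose to the phloem, higher in leaves at -1.27. The list median was 0.51, and 1 of 19 in each direction is near the shares over all probe sets (7.01% and 6.73%).

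Genes often used as references lay between these groups. Of 5 of them tested, 0 met the rule, and their differences had a median of 0.52. GAPC2, a glycolytic enzyme, was at 12.69 ± 0.50 in roots and 12.17 ± 0.12 in leaves (SD, n = 6 each), and TIP41 was at 8.18 ± 0.31 and 7.64 ± 0.26.

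The organ differences were next set against zinc, a contrast the choice of order did not use. The test asked whether roots minus leaves at high zinc differed from roots minus leaves at control. No probe set of 17059 passed (0%; limma, Benjamini-Hochberg adjusted p under 0.05), and 188 (1.10%) had an unadjusted p under 0.05. This is a smaller share than the 0.05 that evenly spread p-values would give. The test was thus conservative, and 0 calls does not show that organ differences are equal at both zinc levels. Because same-numbered arrays of the zinc levels deviated together in A. halleri, the test was repeated with a pair term, which gave 0 calls, and 1 when only the 12 A. halleri arrays were used. With the pair term 548 probe sets had an unadjusted p under 0.05, and 1058 with the 12 arrays alone.

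None of the members named next passed, and they were picked by hand from the genes named above. EXPA18 is a marker that chose the order, and nothing is read from its unadjusted p-values. MTP10 had an organ difference of 3.37 at control and 4.87 at high zinc, with an SE of 1.12 for the gap between them (limma, unadjusted p = 0.19, and 0.10 with the pair term). EXPA18 had 3.01 and 1.32, with an SE of 1.04 (limma, unadjusted p = 0.12, and 0.0083 with the pair term, where the adjusted p was 0.9996). With the pair term and the 12 A. halleri arrays alone, the SE was 0.57 for MTP10 and 0.40 for EXPA18 (limma, unadjusted p = 0.023 and 0.0014, adjusted p = 0.78 and 0.71). LHCB4.2 had -7.30 and -6.93, and AT4G33720 had 7.20 and 6.57. ZIP9 was nearly equal at 2.44 and 2.29. Across the probe sets, the difference between the zinc levels had a median size of 0.26, while the organ difference itself had a median size of 0.53. These sizes are not to be compared, since noise weighs more on a gap between the zinc levels than on their mean. The organ difference also holds the median shift of 0.28.

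**Figure D4:**
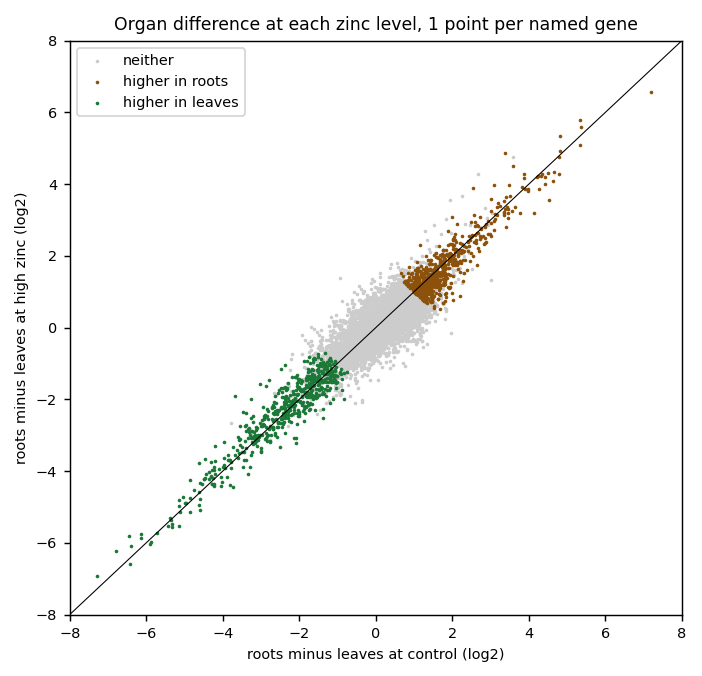
Roots minus leaves at control (horizontal) and at high zinc (vertical), both as differences in mean log2(signal + 16), 1 point per named gene in A. halleri, with the line of equality. Points lie along the line, and 0 of 17059 probe sets passed the test of organ by zinc, which was conservative.

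The organ difference of A. halleri was then compared with that of A. petraea. Of 17059 probe sets, 89 passed (0.522%; limma, adjusted p under 0.05), with 32 more positive and 57 more negative in A. halleri, and 1790 had an unadjusted p under 0.05. Of the 89, 51 were higher in leaves of A. halleri and 20 higher in its roots, beside 6.73% and 7.01% of all probe sets. The test contains the A. halleri organ difference itself, so calls favour probe sets where that difference is large. Nothing is read from the 51 and the 20. In A. petraea 62 of the 89 had an organ difference under 1 in size. Over all probe sets, 1792 stood at 1 or more in A. halleri and 1709 at -1 or less, so most were under 1 in size there. The share for A. petraea was not counted, and nothing is read from the 62. Same-numbered arrays of the zinc levels are not independent in A. halleri, so the pair was also taken as a random block in both species, which left 24 calls, and averaged to 1 value, which left 7. The count moved the other way with the replicate number as a fixed block, at 156, and with array weights, at 623. In A. petraea, 7 of 12 arrays correlated best with the array of the same organ and number. Without petraea high zinc roots 2 there were 147 calls, and 161 without that array and petraea control leaves 2. All 16 genes named below also passed without the first array and without both. Without both, their adjusted p ran from 1.33e-05 to 0.0257.

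Among the named genes called, the 2 with the smallest p had high levels in A. halleri leaves. AT5G04120 was at 8.05 to 9.59 in A. halleri leaves and 4.68 to 5.89 in its roots, against 4.40 to 5.17 in A. petraea leaves and 4.58 to 6.40 in A. petraea roots. The species differed in roots minus leaves by -4.19 ± 0.42 (SE; limma adjusted p = 1.64e-05, and 0.000743 with the random block). AT3G57020, a strictosidine synthase-like gene, was at 9.67 to 10.36 in A. halleri leaves and 4.48 to 5.55 in its roots, against 5.37 to 7.54 and 4.78 to 6.50 in A. petraea. Its difference was -4.26 ± 0.48 (limma adjusted p = 5.29e-05, and 0.000913 with the random block). Without both mixed arrays the differences were -4.26 ± 0.46 for AT5G04120 and -3.74 ± 0.38 for AT3G57020. Both also passed when paired arrays were averaged, which no other gene named for this comparison did.

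The other named genes with a more negative organ difference in A. halleri included SUFE2, an activator of sulfur transfer in the chloroplast, at -2.87 in the former species and 0.56 in the latter. AT3G05730, a defensin-like gene, stood at -2.75 and 0.35, and AT1G33600, a leucine-rich repeat gene, at -3.12 and 0.16. CSLA01, of the glucomannan synthase family, stood at -3.05 and -1.17, and AT4G25020 at -2.56 and -0.70. With the random block these 5 had adjusted p from 0.0247 to 0.0374 and passed. JAL22 was at -2.69 and -0.66 (limma adjusted p = 0.00405) and did not pass with the random block (adjusted p = 0.0678).

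In the other direction, AT4G35380, a guanine nucleotide exchange factor of the ARF type, was at 8.49 to 9.88 in A. halleri roots and 4.73 to 5.58 in its leaves, and at 6.97 to 8.54 and 5.64 to 7.59 in A. petraea. Roots minus leaves came to 4.04 and 1.77 in the same order, a difference of 2.27 ± 0.37 (SE; limma adjusted p = 0.00397, and 0.0667 with the random block). The cytochrome P450 gene CYP71B26 was at 4.32 to 6.01 on all A. halleri arrays and at 8.23 to 9.60 in A. petraea leaves, with 4.69 to 8.63 in A. petraea roots, a difference between the species of 3.67 ± 0.61 (SE), or 4.37 ± 0.41 without both mixed arrays. AT1G68600, of the malate channel family, was likewise at 0.05 in A. halleri and -2.84 in A. petraea. CYP71B35, AT3G48650, AT4G23680, AT2G03510 and AT5G18470 had differences from 1.23 to 2.60. None of the 8 genes named in this direction passed with the random block (adjusted p 0.0536 to 0.268).

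**Figure D5:**
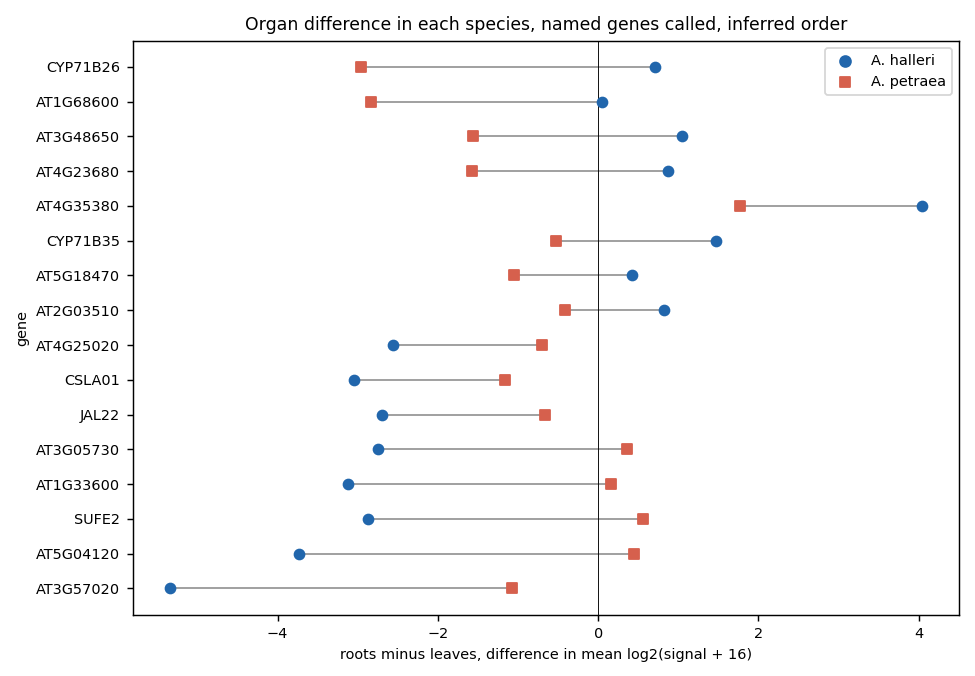
Roots minus leaves in A. halleri (blue circles) and A. petraea (red squares), as differences in mean log2(signal + 16), for the 16 named genes with the smallest p in each direction of the test between species. The grey line is the difference tested, from -4.26 for AT3G57020 to 3.67 for CYP71B26, and several genes lie near 0 in one species.

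In the comparison of the species, 0 members of the light harvesting, photosystem, electron transport, Calvin cycle and chloroplast genome lists were called. These lists hold 73 genes tested, and beside the 0.522% called over all probe sets a count of 0 is near the background. The median of the chloroplast genome list was -3.78 for A. halleri and -2.92 for A. petraea, or -3.42 without petraea high zinc roots 2 and -3.68 without both mixed arrays. Extensins had medians of 4.04 and 2.31, or 2.58 and 2.70 without them, and peroxidases 1.16 and 0.89, or 1.02 and 1.06. All 3 lists were picked after their values in A. halleri were seen, so a smaller value in the other species is not a result. ZIP9 was at -0.19 in A. petraea, where its roots ran from 4.50 to 6.86 and its leaves from 5.96 to 6.27, and the difference of 2.55 ± 0.64 missed the threshold (limma adjusted p = 0.0847, and 0.129 without both mixed arrays). MTP8 was at 2.17 in A. petraea against -0.84 in A. halleri (limma adjusted p = 0.054), which also missed it. For MTP8 the call depended on these arrays: the adjusted p was 0.0433 without petraea high zinc roots 2, 0.0184 without both, and 0.299 with the random block over all arrays. MTP10, at 4.12 and 1.69, had an adjusted p of 0.214, and 0.391 without both. Whether probe mismatch to either species moved any of these differences was not tested.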

How the data were processed

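Per the submitters' processing notes, the deposited signals came from MAS5, which gives each probe set 1 intensity on a linear scale. Its version, its settings and the scanner steps are not given in the sources used. The mean of an array without its lowest and highest 2% of signals was 100.004 to 100.011, so the authors' values had been scaled to a common mean.

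Signals were taken as log2(signal + 16), which understates differences of dim genes. Of 22810 probe sets, 64 array controls and the lowest 25% by mean were left out, which kept 17059. A table of the platform's annotation gave 1 gene for 13513 probe sets, several for 503 and none for 8794, and 12 more were not named because genes share their symbol. Where a gene had several probe sets, that of highest mean over all arrays stood for it, which left 9548 named genes. Annotation can be old, and no genome was used.

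Groups and replicate numbers followed the inferred order. The title of serial 3 prints replicate 1, as that of serial 1 does, but it was taken as replicate 3 of its group. Through the order this number fell on serial 11, which is control roots 3 of A. halleri. The pairing of that array rests on this reading. limma 3.58.1 in R 4.3.3 fitted the 8 group means to all 24 arrays (lmFit, eBayes with trend and robust, 16 residual degrees of freedom), with two-sided tests of organ by zinc and organ by species and Benjamini-Hochberg adjustment over all probe sets. Scripts were tested on simulated data. The 26 gene lists held 299 genes, of which 257 were tested.

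The members, order, lists and tests were chosen with earlier results of these data known. The lists were revised to the names in the annotation table, and the peroxidase, extensin and chloroplast genome lists were added after values were seen. Named genes were the 12 highest and 12 lowest organ differences without overlap, the 8 called genes with the smallest p in each direction, and list members.

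Same-numbered control and high zinc arrays deviated together from their group means, at r = 0.57, 0.20 and 0.61 in A. halleri roots and 0.81, 0.73 and 0.65 in its leaves. In A. petraea the values were 0.57, 0.28 and 0.46 in leaves and 0.51, -0.05 and 0.31 in roots, the second with the array that carries leaf markers. The numbers thus pair the zinc levels within an organ of A. halleri by this check of the values, while the check failed in A. petraea roots, and no label states a pairing. Same-numbered roots and leaves gave r = -0.07 to 0.17. The alternatives were other pseudocounts (1 and 64), no filter, quantile normalization, the printed labels, leaving out each array, array weights and replicate blocks, of which 8 were added after values were seen.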

Additional observations from a re-analysis of the deposited data

Results flagged for a closer look

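In groups of 6 A. halleri arrays, 8 values stood apart from the rest of their organ by the gap test for a single outlier. Chance meets this test in about 1 in 20 groups. The groups screened were roots and leaves for each of the 79 named organ genes and for genes named in the species comparison. At that rate chance alone would give about as many, so the 8 values are not read as real outliers. Among roots, PSBW was at 6.67 in control roots 3 and PORB at 6.61 in control roots 2. In control leaves, F6H1 was at 5.10 in replicate 2, while MTP10 was at 4.52 and AT3G57020 at 9.67 in replicate 3. In high zinc leaves 1, AT1G26240 was at 6.31, TIP41 at 7.13 and AT4G35380 at 4.73.

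The test of the difference between the species passed for 89 probe sets. The difference of A. halleri minus A. petraea in roots minus leaves was 2.27 for AT4G35380, 3.67 for CYP71B26, 2.60 for AT3G48650 and 2.89 for AT1G68600. It was 1.99 for CYP71B35, 2.45 for AT4G23680, 1.23 for AT2G03510 and 1.47 for AT5G18470. On the negative side it was -4.19 for AT5G04120, -4.26 for AT3G57020, -3.43 for SUFE2 and -3.11 for AT3G05730. It was -2.03 for JAL22, -1.86 for AT4G25020, -1.88 for CSLA01 and -3.28 for AT1G33600.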

How the results depend on the processing

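The organ counts of 1195 and 1148 were 1635 and 1200 at a pseudocount of 1, 1281 and 1186 without the filter and 951 and 1349 after quantile normalization. At a pseudocount of 64 they were 556 and 927, 1483 in all against 2343, since that constant shrinks differences of dim genes. Leaving out each A. halleri array gave totals of 2358 to 2579, with 1188 to 1389 higher in roots and 1170 to 1239 in leaves. Without both root arrays numbered 3 they were 1536 and 1306. Under the inferred order 0 named genes that met the rule changed sign in these alternatives. Except after quantile normalization this was fixed in advance, since the rule asks for all arrays of an organ to lie above the other organ. Of 1343 recomputed organ differences of all 79 named genes, 51 moved by more than the replicate SD, 50 of them at another pseudocount. Leaving out arrays could not move a difference that far, so those settings do not bear on its stability.

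Organ by zinc had 0 calls at either pseudocount, without the filter, after quantile normalization, with the 12 A. halleri arrays alone, without each array and with the replicate number as a block, and 1 with array weights. With a replicate block within the organ it had 0, or 1 with the 12 A. halleri arrays alone. Organ by species had 89 calls, and 156 with the replicate number as a block, 623 with array weights, 24 with a random replicate block within the organ and 7 with same-numbered arrays averaged. Leaving out each array gave 66 to 147, the latter without petraea high zinc roots 2, and 161 followed without that array and petraea control leaves 2. Of 528 recomputed differences of the 16 named genes, 23 no longer passed, all with the random block or averaging, and 0 changed sign. MTP8 passed without petraea high zinc roots 2 and without both mixed arrays. Beyond the smaller number of independent units under the random block and averaging, the cause of these shifts was not tested.

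With the groups as printed in the titles, the organ contrast had 1 probe set higher in roots and 0 in leaves, 1 in all, organ by zinc 3938 calls and organ by species 0. The median over all probe sets became -0.018. Of the 64 named genes that met the rule, 55 changed sign in roots minus leaves and 9 kept it. The value turned positive for LHCB4.2 1.59, PSAN 1.48, PSBY 0.91, AT1G09310 1.03, LHCB4.1 1.28, psbH 1.21, PDF1.2b 0.42, PSAE-1 1.11, atpH 0.70, PSBW 0.79, psbT 0.90, AT2G26500 0.89, LHCB4.3 0.49, LIL3:1 0.85, PSB27 0.87, PAM68 0.54, ATPC1 0.53, RCA 0.75, PRK 0.39, SBPASE 0.54, HPR 0.54, GDCST 0.11, PORB 0.63, HEME2 0.97, SBE2.2 0.14, STOMAGEN 0.69, JAL22 0.46, JAL23 0.35, CCOAMT 0.29, CCL 1.21, psbA 0.55 and psaI 0.022. It turned negative for AT4G33720 -0.61, AT1G26250 -0.39, AT4G25790 -0.59, AT3G19390 -0.51, AT5G10580 -0.022, AT1G49310 -0.27, AT4G33710 -0.80, AT1G26240 -0.053, AT3G54040 -0.51, hemb2 -0.18, XTH26 -0.37, EXLB1 -0.46, NAI2 -0.12, FACT -0.091, SWEET14 -0.29, NRT2.5 -0.81, ZIP9 -0.68, MTP10 -0.55, bHLH115 -0.28, ILR3 -0.19, AT4G26010 -0.32, AT5G19890 -0.32 and HRGP1 -0.55. The difference between the species turned sign for AT3G48650 -1.14, AT2G03510 -1.26, AT5G18470 -0.0067 and AT4G25020 1.40. The number of arrays and, for dim genes, the signal over background limit the precision of all values.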

Other observations

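A few genes differed widely between replicate numbers at both zinc levels. Glycerate kinase (GLYK) was at 8.14, 5.10 and 8.42 in control roots 1, 2 and 3 and at 7.52, 5.00 and 8.84 in high zinc roots 1, 2 and 3. In leaves it was at 4.83, 6.93 and 6.75 at control and 5.13, 7.07 and 6.80 at high zinc. The low value thus lay on both root arrays numbered 2 and on both leaf arrays numbered 1. NRT2.5 was high on both root arrays numbered 2, and STOMAGEN was low on both leaf arrays numbered 2. These genes were picked after their values were seen, and the origin of such pairs was not tested.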
